A study of Mus musculus with 48 samples.

Results

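The genes described here are 10 transcription factors of the core and naive pluripotency network of mouse embryonic stem cells (mESCs), namely Pou5f1, Nanog, Sox2, Esrrb, Klf2, Klf4, Klf5, Tfcp2l1, Tbx3 and Zfp42. They were chosen by name and matched by gene identifier, and they are 10 of the 23862 genes that appear in any library. E14TG2a mESCs, 1 established line grown in "2i + LIF" medium, received 1 µM flavopiridol, which blocks the kinase needed to release RNA polymerase II from its pause, and polyadenylated RNA was sequenced after 30, 60, 120 and 240 min. Each of the 16 groups is 1 time point in 1 of 4 preparations, the whole-cell extract (total) or the nuclear, cytosolic or membrane fraction, with 3 independently passaged replicates, which gives 48 libraries. All groups carried the drug, and the reference is the 0 min level of the same fraction, whose libraries were not analysed here. Each value is a ratio to 0 min, so a ratio of 1 is the starting level and a ratio says nothing about how abundant an mRNA is. Because every ratio is relative to its own fraction, values in different fractions compare time courses and not amounts.

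POU5F1 (OCT4), SOX2 and NANOG form the core of the pluripotency network and bind many of the same enhancers, including those of their own genes. ESRRB, the Krüppel-like factors KLF2, KLF4 and KLF5, TFCP2L1 and TBX3 are the naive tier, which connects LIF/STAT3 signalling and the inhibition of GSK3 and MEK to that core, and Zfp42 (REX1) is a widely used marker of the naive state. With transcription blocked, the fall of each mRNA from its starting level reports how fast the existing transcripts disappear from a fraction. In a fraction, an mRNA can disappear by decay or by moving on to another compartment.

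The libraries listed between 15067 and 19501 genes, and 8 of 10 embryonic stem cell markers, all but Esrrb and Zfp42, were listed in all 48 libraries. Genes that mark other cell types were listed too. Of 6 feeder fibroblast markers Col1a1 was listed in 44, Thy1 in 43, Col1a2 in 12 and Col3a1 in 3 libraries, and Postn and Lum in none. Of 6 primitive endoderm markers Dab2 was listed in 48, Gata6 in 42, Sox7 in 38 and Sox17 in 1, and Gata4 and Pdgfra in none. Of 6 trophoblast markers Eomes, Tfap2c and Krt8 were listed in 48 and Cdx2 in 27, and Elf5 and Hand1 in none. Of 4 markers of 2-cell-like cells Zscan4c and Zscan4d were listed in 48 and Usp17lc in 35, and Zfp352 in none. A listed gene was above 0, its level is not known from a ratio, and the part of such cells in the results was not tested. The median ratio over all genes of a fraction fell from 0.861 at 30 min to 0.482 at 240 min in total RNA, and from 0.773 to 0.348 in the nucleus. The nuclear 30 min library of replicate 1 stood apart, with a median ratio of 0.592 against 0.949 and 0.823 in replicates 2 and 3. In bulk RNA, fewer cells that express a gene and less of its mRNA per cell cannot be told apart.

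Most of the 10 mRNAs were measured throughout. Pou5f1, Nanog, Sox2, Klf2, Klf4, Klf5 and Tfcp2l1 were listed in all 48 libraries and Zfp42 in 47, all but the membrane 120 min library of replicate 1. Esrrb was listed in 37 libraries and Tbx3 in 21. A gene at 0 is not listed, and a gene was tested in a fraction only where all 12 of its libraries listed it, which left 8 members for total, 9 for nuclear, 8 for cytosolic and 7 for membrane RNA.

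The genes lie on separate chromosomes with the exception of Klf2 and Zfp42. In GRCm38 (mm10), Pou5f1 is at chr17:35506018-35510772, Nanog at chr6:122707489-122714633, Sox2 at chr3:34650405-34652461, Klf2 at chr8:72319033-72321656, Klf5 at chr14:99298691-99315036, Tfcp2l1 at chr1:118627945-118685168, Esrrb at chr12:86361117-86521628 and Tbx3 at chr5:119670669-119684724, all on the plus strand. Klf4 at chr4:55527143-55532466 and Zfp42 at chr8:43295063-43306980 are on the minus strand. Sox2 is a single-exon gene that lies inside the longer noncoding gene Sox2ot on the same strand. Nanog has the annotated processed pseudogenes Nanog-ps1 and Nanog-ps2, and Zfp42 has Zfp42-ps1. The values of Sox2, Nanog and Zfp42 could therefore hold reads shared with these copies or hosts, and Pou5f1 and Tbx3 overlap the antisense genes Gm19553 and Tbx3os1. Tfcp2l1 overlaps the rRNA gene Gm22094 and the processed pseudogene Gm28882 on the opposite strand and the snRNA gene Gm23497 on its own strand.

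The 3′ UTR is where many signals for mRNA decay lie, and AU-rich elements are built from the pentamer AUUUA, written here as ATTTA. A window of 30 bases is shown for 3 members whose mRNA had a short half-life (Klf2, Sox2 and Klf5), for Nanog and for the slower Tfcp2l1, since all 5 carry the element. Each is centred on the ATTTA matches of the first window of that 3′ UTR with the most ATTTA. The sequences are read 5′ to 3′ on the sense strand from the GENCODE vM21 transcript on GRCm38, with ATTTA in capitals.
Klf2 (chr8:72320987-72321016, plus strand): caaacagactgctATTTAttggaccttagg
Sox2 (chr3:34651756-34651785, plus strand): ctttaccagtaatATTTAgagctagactcc
Klf5 (chr14:99313929-99313958, plus strand): atcagctttatagATTTAtcacaagttttt
Nanog (chr6:122713627-122713656, plus strand): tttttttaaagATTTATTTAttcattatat
Tfcp2l1 (chr1:118677909-118677938, plus strand): taagactggagctATTTAtttgtgccttcc

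The first comparison asked how each mRNA changed over time within a fraction, as a slope of log2 ratio per h. In total RNA 7 of 8 tested members fell and 0 rose, where 56.9% of all 12762 genes fell and 3.39% rose (limma, adjusted p under 0.05). Among nuclear libraries 7 of 9 fell (all genes 61.9%), among cytosolic ones 6 of 8 (67.1%) and among membrane ones 6 of 7 (62.2%). Again 0 members rose in each, where 3.32%, 2.95% and 4.09% of all genes did. Counts of so few members cannot show whether they differ from the shares of all genes. What set the members apart among themselves was the size of the fall. In total RNA the median slope of the members was -1.02 log2 units per h, and that of all genes was -0.22. The median half-life of the members was 30.7, 27.2, 30.9 and 27.7 min for total, nuclear, cytosolic and membrane RNA, beside 244, 176, 213 and 219 min over all genes.

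**Figure D1:**
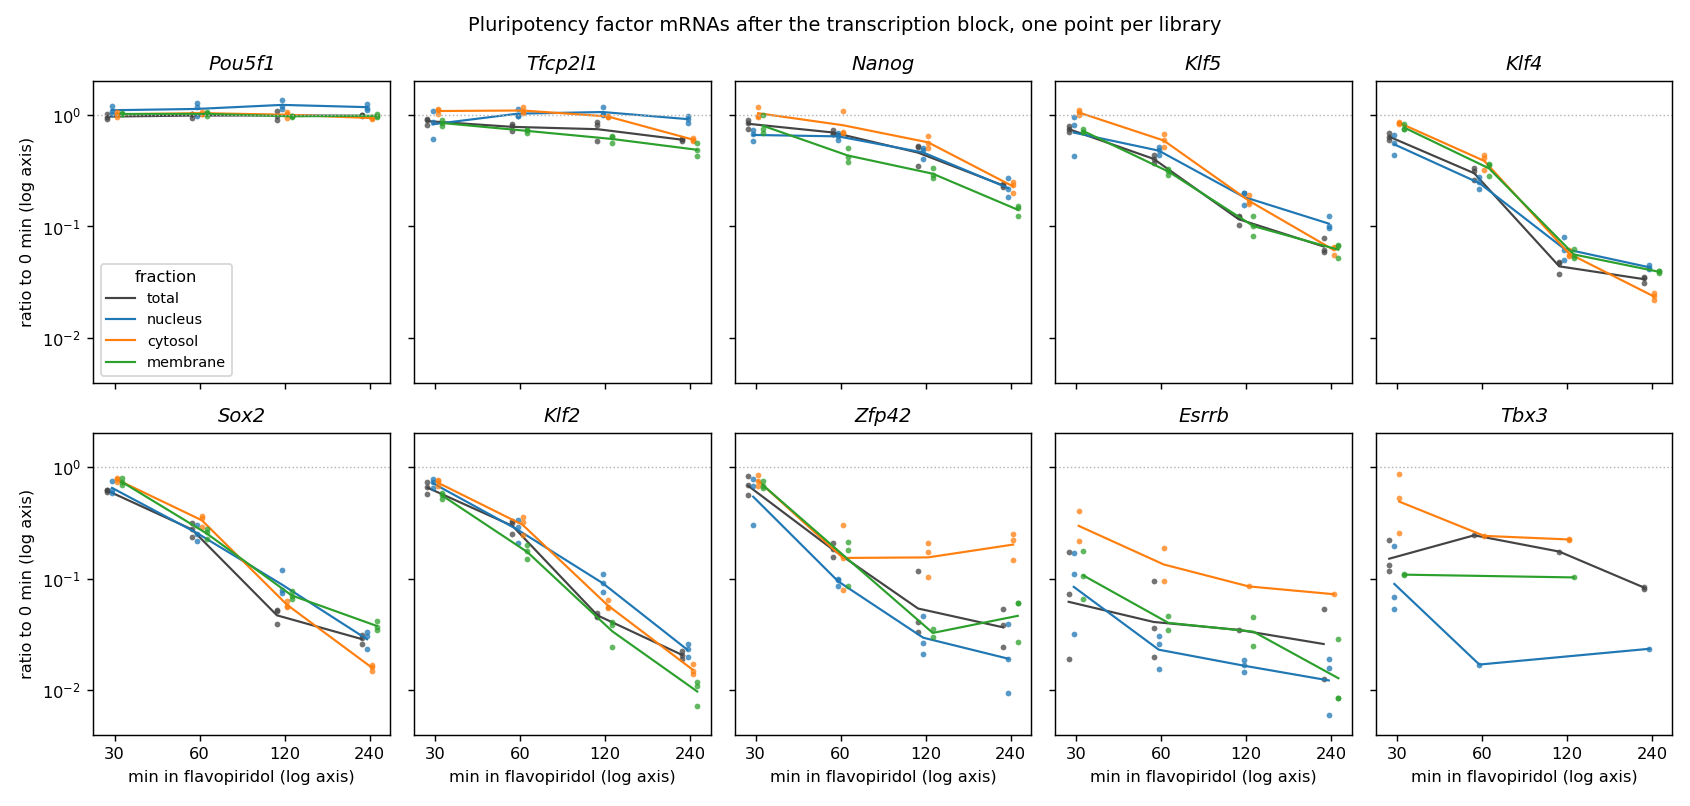
Ratio to 0 min of each of the 10 mRNAs (log axis) against time in flavopiridol (log axis), with 1 point per library, colours for the 4 fractions and lines through the geometric means. Pou5f1 stays between 0.905 and 1.36, around the dotted line at 1, Tfcp2l1 ends between 0.424 and 0.976, Nanog between 0.125 and 0.269, and Sox2, Klf2 and Klf4 end below 0.05. Esrrb and Tbx3 have gaps where libraries did not list them.

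Pou5f1, the POU-domain factor at the centre of the network, stayed near its starting level. In total RNA its ratio was 0.921, 1.01 and 0.956 in replicates 1 to 3 at 30 min and 0.984, 0.988 and 0.963 at 240 min. Over all 48 libraries it ranged from 0.905 to 1.36. The slope did not pass the test in any fraction, at 0.00 ± 0.03 (SE) log2 units per h for total RNA (limma, adjusted p = 0.900) and 0.03 ± 0.04, -0.04 ± 0.02 and -0.02 ± 0.02 for the nuclear, cytosolic and membrane RNA. At 240 min 87.1% of all genes in total RNA had a lower ratio. Its exponential fit gave no finite half-life in total RNA or the nucleus, and half-lives of 1600 and 3463 min in the cytosol and membrane fraction lay far beyond the time course. Whether Pou5f1 was flat rests on the scaling to long-lived reference genes. After centring libraries on the median gene, the slope in total RNA was 0.23 (adjusted p = 4.8e-05), a rise relative to the median gene, and with libraries scaled to mitochondrially encoded mRNAs it was -0.12 (adjusted p = 0.0288).

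Sox2, the HMG-box partner of OCT4, fell steeply. In total RNA its ratio was 0.592, 0.625 and 0.622 at 30 min, 0.277, 0.237 and 0.316 at 60 min, and 0.0258, 0.0292 and 0.0313 at 240 min. The groups did not overlap between any of these times, and the slope was -1.23 ± 0.17 log2 units per h (limma, adjusted p = 3.8e-05). The exponential fit gave a half-life (± SD over fits to each replicate alone) of 25.8 ± 3.4 min for total, 24.9 ± 4.7 min for nuclear, 24.8 ± 1.7 min for cytosolic and 20.8 ± 0.70 min for membrane RNA. Only 1.61% of all genes in total RNA had a lower ratio at 240 min.

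Nanog, a homeodomain factor whose level varies between single stem cells, lay between these. In total RNA its ratio was 0.897, 0.748 and 0.850 at 30 min, 0.349, 0.518 and 0.530 at 120 min and 0.224, 0.240 and 0.235 at 240 min. At 120 min replicate 1 was the lowest of the 3, and the 240 min values lay below all of those at 120 min. The slope was -0.53 ± 0.04 log2 units per h (limma, adjusted p = 3.7e-07), and the half-life was 112 ± 29 min for total, 141 ± 26 min for nuclear, 99.7 ± 25 min for cytosolic and 62.0 ± 19 min for membrane RNA. In the nucleus the fall of Nanog did not pass the test when libraries were scaled to mitochondrially encoded mRNAs (-0.28, adjusted p = 0.123).

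The Krüppel-like factors, zinc-finger proteins that share targets in the network, fell steeply and stood in a graded order at 240 min. In total RNA Klf2 had ratios of 0.724, 0.572 and 0.662 at 30 min and 0.0224, 0.0189 and 0.0207 at 240 min. Klf4 had 0.684, 0.630 and 0.596 at 30 min and 0.0310, 0.0349 and 0.0355 at 240 min. Klf5 had 0.785, 0.698 and 0.748 at 30 min and 0.0587, 0.0621 and 0.0795 at 240 min. For each of the 3 genes every 240 min value lay far below every 30 min value, and the 3 genes did not overlap with one another at 240 min. The slopes in total RNA were -1.40 ± 0.16 for Klf2, -1.19 ± 0.19 for Klf4 and -0.97 ± 0.11 log2 units per h for Klf5 (limma, adjusted p = 6.3e-06, 1.2e-04 and 9.7e-06). In total RNA the half-life of Klf5 was longer than those of Klf2 and Klf4, at 34.8 ± 3.4 min against 25.8 ± 1.5 and 26.6 ± 4.0 min. The single-series ranges of Klf4 and Klf5 did not overlap there, and those of Klf2 and Klf4 did. In the membrane fraction the ranges of Klf4 and Klf5 overlapped, with half-lives of 24.7 ± 2.6 and 27.7 ± 2.4 min. In the nucleus the half-life of Klf5 was 50.8 ± 37 min, where the series of replicate 1 gave 102 min and those of replicates 2 and 3 gave 33.0 and 43.4 min.

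Tfcp2l1, a grainyhead-family factor acting downstream of LIF and Wnt signals, fell the least after Pou5f1 among the members tested in total RNA. In total RNA its ratio was 0.812, 0.920 and 0.899 at 30 min and 0.607, 0.601 and 0.583 at 240 min. Total (slope -0.15 ± 0.04, limma adjusted p = 0.0031), cytosolic (-0.25 ± 0.03, adjusted p = 2.5e-06) and membrane-bound Tfcp2l1 (-0.22 ± 0.03, adjusted p = 8.5e-05) fell, and the nuclear slope of 0.01 ± 0.06 did not pass the test (adjusted p = 0.846). These falls were slightly smaller than that of the median gene (-0.22, -0.28 and -0.26 for total, cytosolic and membrane RNA). After centring libraries on the median gene, the slope turned to 0.08 for total RNA (adjusted p = 0.0331), 0.03 for cytosolic and 0.05 for membrane RNA. Its half-life was 407 ± 55 min for total, 259 ± 43 min for cytosolic and 263 ± 121 min for membrane RNA, with no finite value for nuclear RNA.

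Zfp42, the zinc-finger marker of the naive state, had the shortest half-life of the 8 members fitted in total RNA, which leaves out Esrrb and Tbx3. The Esrrb ratio in total RNA was already 0.0723, 0.171 and 0.0192 at 30 min, below every Zfp42 value at that time. The Zfp42 ratio there was 0.554, 0.819 and 0.679 at 30 min, 0.182, 0.156 and 0.210 at 60 min and 0.0243, 0.0382 and 0.0528 at 240 min. The half-life was 16.6 ± 3.2 min, and 0.251% of all genes had a shorter one. The slope of Zfp42 in total RNA was -1.08 ± 0.20 log2 units per h (limma, adjusted p = 5.2e-04). Klf2 (-1.40), Sox2 (-1.23) and Klf4 (-1.19) had steeper slopes, so Zfp42 had the shortest half-life but not the steepest slope. In the nucleus Zfp42 reached 0.0190, 0.0389 and 0.0095 at 240 min, with a half-life of 11.6 ± 6.3 min. In the cytosol it dropped early and then levelled off, with 0.672, 0.739 and 0.844 at 30 min, 0.299, 0.152 and 0.0784 at 60 min and 0.249, 0.148 and 0.221 at 240 min. The cytosolic values at 60 and 240 min overlapped, the slope over the whole course did not pass the test (-0.32 ± 0.21, limma adjusted p = 0.198), and the half-lives of the single series ran from 8.88 to 58.9 min. Over 30, 60 and 120 min alone the cytosolic slope was -1.30 (adjusted p = 0.0489).

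Esrrb, an orphan nuclear receptor of the naive tier, could be tested only in the nucleus. Its nuclear ratio was 0.0321, 0.171 and 0.109 at 30 min, so that it was already far below its start at the first time point, and 0.0061, 0.0190 and 0.0160 at 240 min. Only 0.495% of genes in the nucleus had a lower ratio at 30 min. The nuclear slope was -0.64 ± 0.20 log2 units per h (limma, adjusted p = 0.0151), a call that was lost without replicate 1 (adjusted p = 0.0797), without replicate 3 (0.0788) and with a pseudocount of 0.1 (0.0599). The call was also lost after centring libraries on the median gene (adjusted p = 0.153) or scaling them to mitochondrially encoded mRNAs (0.222). In the 9 total RNA libraries that listed it, Esrrb ranged from 0.0127 to 0.171, and in the 10 membrane libraries from 0.0085 to 0.175. Cytosolic Esrrb ranged from 0.0724 to 0.402 in 6 libraries, with 0.402 and 0.217 in replicates 2 and 3 at 30 min. No cytosolic library of replicate 1 listed Esrrb, and at 120 and 240 min only replicate 2 did. The cytosolic range therefore cannot be set against those of the other fractions. Tbx3, a T-box factor that sustains the naive state, was listed in 7 total, 5 nuclear, 6 cytosolic and 3 membrane libraries. The listed Tbx3 ratios ranged from 0.0813 to 0.244 in total RNA and from 0.0170 to 0.195 in the nucleus. They ranged from 0.102 to 0.109 in the membrane fraction and from 0.223 to 0.859 in the cytosol. Cytosolic Tbx3 at 30 min was 0.255, 0.529 and 0.859 in replicates 1 to 3. The ranges of Esrrb and Tbx3 cover only libraries in which the gene was above 0, and no trend was tested for Tbx3. With genes listed in at least 9 of 12 libraries, the slope of Esrrb was -0.32 ± 0.27 in total RNA (adjusted p = 0.362) and -0.78 ± 0.17 in the membrane fraction (adjusted p = 0.0021), where Zfp42 then had -0.95 ± 0.25 (adjusted p = 0.0069).

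**Figure D2:**
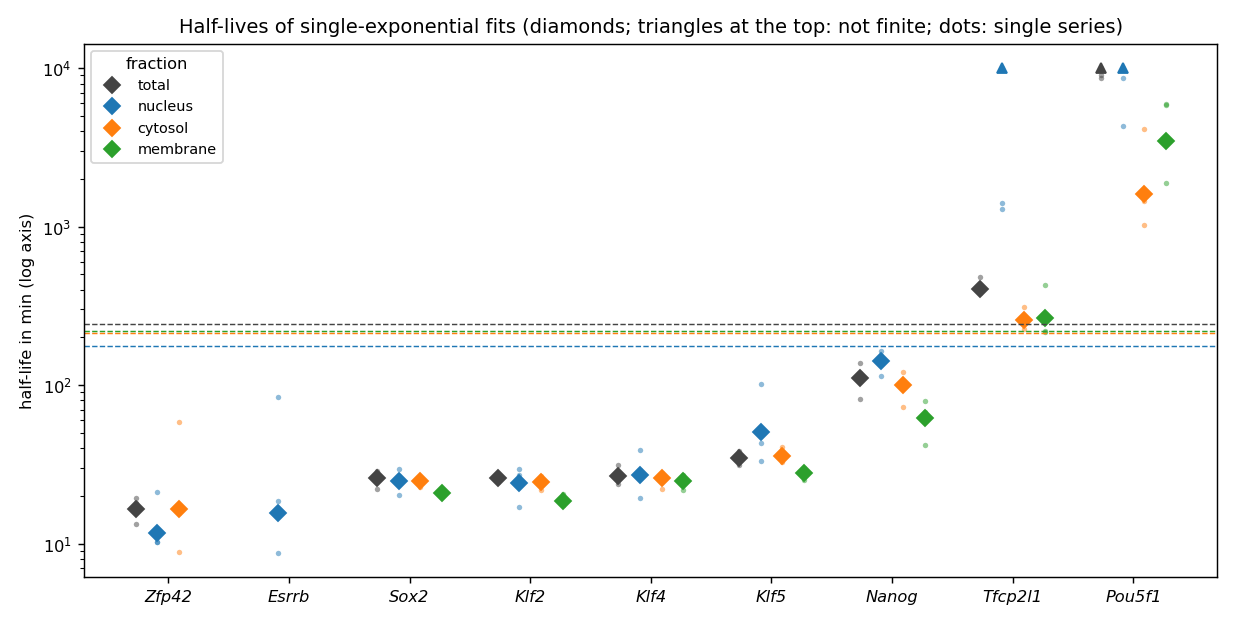
Half-life in min (log axis) of each tested member in the 4 fractions. Diamonds are fits to all 12 libraries, small dots are the 3 single-replicate series, triangles at the top edge have no finite half-life, and dashed lines are the medians over all genes of each fraction. The diamonds of Zfp42, Esrrb, Sox2, Klf2, Klf4 and Klf5 lie at or below 50.8 min in every fraction in which they were tested. The fits of Tfcp2l1 and Pou5f1 lie above the dashed lines. Some single series lie far higher, up to 83.7 min for nuclear Esrrb (diamond at 15.6 min), 102 min for nuclear Klf5 and 58.9 min for cytosolic Zfp42.

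The order of half-lives in total RNA was Zfp42, Sox2, Klf2, Klf4, Klf5, Nanog, Tfcp2l1 and Pou5f1. Neighbours whose single-series ranges overlapped were Sox2 and Klf2 (25.8 min each) and Klf2 and Klf4, so these 3 genes could not be ordered. The other neighbours did not overlap in total RNA. In the cytosol Zfp42, Klf2, Sox2 and Klf4 overlapped with their neighbours, and in the nucleus every neighbouring pair from Zfp42 to Klf5 overlapped. In the membrane fraction Klf2 overlapped with Sox2, and Klf4 with Klf5. Across all 48 libraries the pair of members with the most similar ratios was Sox2 and Klf4, with a root mean square difference of 0.31 log2 units, followed by Pou5f1 and Tfcp2l1 with 0.47. The values of the exponential depend on the fit, and so does the place of Zfp42 in the order. By the slope in total RNA Zfp42 (-1.08 log2 units per h) came after Klf2 (-1.40), Sox2 (-1.23) and Klf4 (-1.19). A straight line on log2 of the ratio gave median half-lives of the members of 58.8, 78.2, 74.9 and 63.5 min for total, nuclear, cytosolic and membrane RNA in place of 30.7, 27.2, 30.9 and 27.7 min. Forcing the curve through a ratio of 1 at 0 min gave medians of 61.6 min for cytosolic and 43.6 min for membrane RNA. The cytosolic median was 116 min after centring libraries on the median gene and 18.9 min after scaling to mitochondrially encoded mRNAs.

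**Figure D3:**
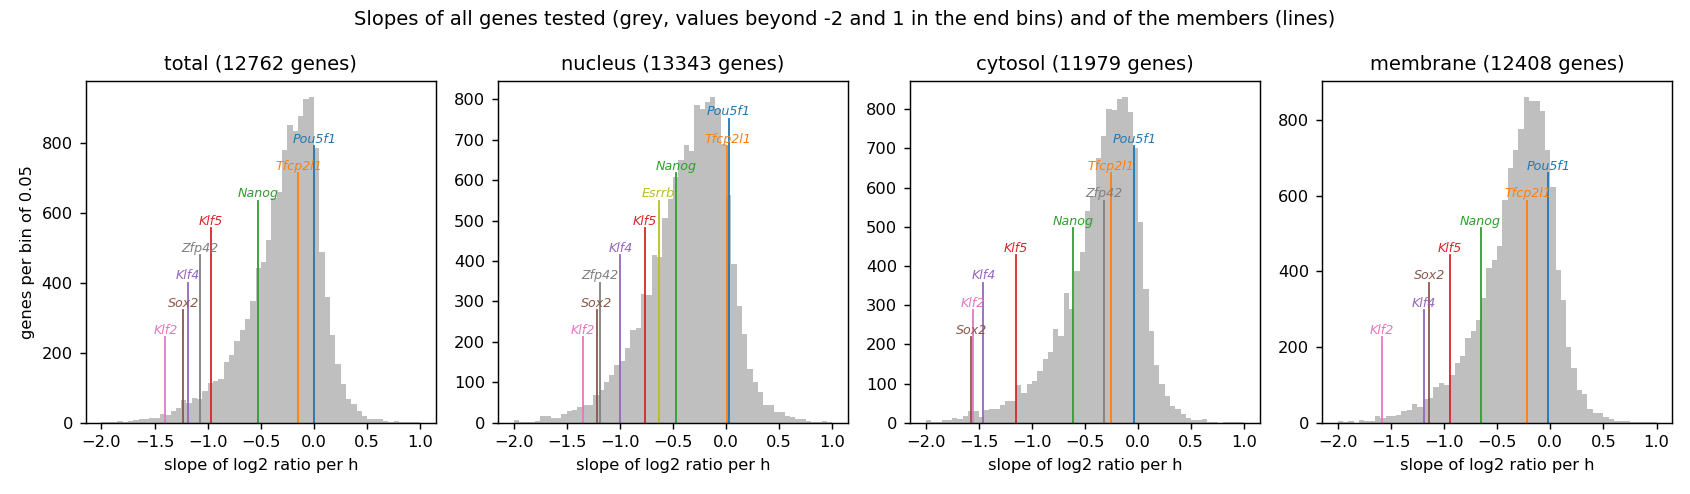
Number of genes per slope bin in each fraction (grey, slope of log2 ratio per h, bins of 0.05) with the slope of each tested member as a labelled line of arbitrary height. In total RNA the members run from -1.40 for Klf2, where 0.823% of genes lie lower, to 0.00 for Pou5f1, where 81.9% lie lower.

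The second comparison asked when the members fell, from neighbouring time points. Between 30 and 60 min 4 of 8 members fell in total RNA, Sox2, Klf2, Klf4 and Klf5, where 2.32% of all genes did. Between 60 and 120 min 6 of 8 fell, these 4 with Nanog and Zfp42 (all genes 26.5%), and between 120 and 240 min 4 of 8 fell, Nanog, Sox2, Klf2 and Klf5 (29.2%). Among the steps that passed the test in total RNA, the steepest rates were those of Klf4 at -2.77 ± 0.18, Klf2 at -2.66 ± 0.18 and Sox2 at -2.55 ± 0.19 log2 units per h (SE) between 60 and 120 min. After 120 min the rates of the same 3 genes were -0.19 ± 0.09, -0.59 ± 0.09 and -0.35 ± 0.10, so their curves flattened once the ratio was near 0.05. Nanog showed no such flattening, with -0.60 ± 0.16 between 60 and 120 min and -0.49 ± 0.08 afterwards. Zfp42 changed by -3.80 ± 0.91 log2 units per h between 30 and 60 min, but with its larger replicate spread this step did not pass the test (limma, adjusted p = 0.0561).

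The same intervals in the fractions showed an early fall in each. Between 30 and 60 min 4 of 9 members fell in the nucleus (Sox2, Klf2, Klf4 and Zfp42, all genes 2.18%), 5 of 8 in the cytosol (Sox2, Klf2, Klf4, Klf5 and Zfp42, all genes 1.89%) and 5 of 7 in the membrane fraction (Nanog, Sox2, Klf2, Klf4 and Klf5, all genes 12.7%). Between 60 and 120 min 4 of 9 fell in the nucleus (12.1%), 4 of 8 in the cytosol (34.5%) and 5 of 7 in the membrane fraction (25.6%). Between 120 and 240 min the counts were 3 of 9 (34.3%), 6 of 8 (47.9%) and 6 of 7 (37.6%). Tfcp2l1 was called in this last interval in the cytosol, where it changed by -0.69 ± 0.08 log2 units (limma, adjusted p = 3.7e-05), after ratios of 0.960, 0.982 and 0.955 at 120 min. Leaving out 1 replicate lowered the sum of calls over the 3 intervals from 14 to between 5 and 9 in total RNA and from 16 to between 7 and 8 in the membrane fraction. In the nucleus the sum went from 11 to between 3 and 13, to 7 with a replicate block and to 5 with scaling to mitochondrially encoded mRNAs. The 4 nuclear calls between 30 and 60 min and the 4 between 60 and 120 min were all lost without replicate 2 and without replicate 3, and the 4 between 30 and 60 min also with the replicate block (adjusted p from 0.0898 to 0.108).

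The third comparison set the nucleus against the cytosol, 2 fractions of the same harvested cells. For 8 members listed in all 24 libraries the difference of slopes was called for Klf5 (0.38 ± 0.13 log2 units per h, limma adjusted p = 0.0403) and Tfcp2l1 (0.27 ± 0.06, adjusted p = 0.0041), both with the shallower slope in the nucleus. Over all genes 12.3% had a higher and 8.3% a lower slope in the nucleus. The call for Klf5 was lost when any replicate was left out (adjusted p from 0.0877 to 0.267), with a replicate block (0.0539), with a pseudocount of 0.1 (0.177) and without the nuclear 30 min library of replicate 1 (0.0629), in which Klf5 was at 0.426 against 0.959 and 0.809. The call for Tfcp2l1 was lost without replicate 3 (adjusted p = 0.0681). Both calls were lost with libraries scaled to mitochondrially encoded mRNAs. With the harvest as a block 5 members were called, Sox2 (adjusted p = 0.0116), Klf4 (0.0010), Klf5 (0.0069) and Tfcp2l1 (0.0019) with a shallower and Zfp42 (0.0056) with a steeper slope in the nucleus.

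Slopes from 30 min on miss what happened earlier, so the ratios of both fractions were also compared at each time. At 30 min Nanog (-0.65 ± 0.18), Klf4 (-0.64 ± 0.19), Klf5 (-0.60 ± 0.22) and Tfcp2l1 (-0.39 ± 0.14, log2 nucleus minus cytosol) were lower in the nucleus (4 of 8, all genes 23.1% lower and 7.05% higher). At 60 min Klf4 alone was lower (-0.66 ± 0.19, all genes 34.7% lower and 7.03% higher), a call lost without replicate 1 (adjusted p = 0.0523) or replicate 3 (0.127). All 4 calls at 30 min were lost without the nuclear 30 min library of replicate 1, in which the median gene was low too (adjusted p = 0.0503 for Nanog, 0.0829 for Klf4, 0.301 for Klf5 and 0.268 for Tfcp2l1). With the harvest as a block the call for Klf5 at 30 min was lost as well (adjusted p = 0.0775).

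At 240 min, under the deposited scaling, 6 of 8 members kept a larger share of their start in the nucleus. Pou5f1 (0.33 ± 0.11), Sox2 (0.84 ± 0.19), Klf2 (0.58 ± 0.20), Klf4 (0.87 ± 0.19), Klf5 (0.78 ± 0.22) and Tfcp2l1 (0.60 ± 0.14) were higher in the nucleus than in the cytosol, where 21.6% of all genes were higher and 34.8% lower. Sox2 illustrates this, with nuclear ratios of 0.0307, 0.0329 and 0.0233 at 240 min and cytosolic ratios of 0.0149, 0.0162 and 0.0168, so that the groups did not overlap. Tfcp2l1 had 0.976, 0.923 and 0.844 in the nucleus and 0.625, 0.585 and 0.591 in the cytosol. At 120 min 3 of 8 were higher, Pou5f1 (0.29 ± 0.11), Sox2 (0.60 ± 0.19) and Klf2 (0.66 ± 0.20), where 14.9% of all genes were higher and 33.4% lower. The call for Pou5f1 at 120 min was lost with the harvest as a block (adjusted p = 0.0537). Zfp42 differed in the other direction, by -2.39 ± 0.50 at 120 min (limma, adjusted p = 7.2e-04) and -3.39 ± 0.50 at 240 min (adjusted p = 1.6e-05), and all its nuclear values at both times lay below all its cytosolic ones. When any single replicate was left out, the calls for Zfp42 at both times and for Sox2, Klf4 and Tfcp2l1 at 240 min were kept, whereas those for Pou5f1 and Klf2 at 240 min were lost with each replicate left out (adjusted p from 0.0531 to 0.171), that for Klf5 without replicate 3 (0.0723), and the 3 higher calls at 120 min with at least 1 replicate left out.

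These differences between fractions depend on the scaling, since each fraction was scaled on its own. Over the 4 times the main values gave 9 higher and 7 lower calls for the members. Centring each library on its median gene gave 15 higher and 2 lower, with the median gene moving from -0.19 to 0.26 at 240 min. Scaling to mitochondrially encoded mRNAs gave 0 higher and 18 lower, moved the median gene at 240 min to -0.72, and turned the direction of Pou5f1, Sox2 and Klf2 at 120 min and of Pou5f1 at 240 min. A pseudocount of 0.1, which damps low ratios, removed the calls for Sox2, Klf2, Klf4 and Klf5 at 240 min (adjusted p from 0.101 to 0.535). The lower nuclear ratio of Zfp42 at 120 and 240 min was called under each of these 3 settings. It is not particular to the nucleus. At 240 min the cytosolic ratios of Zfp42 also lay above all those of total RNA (0.0243, 0.0382 and 0.0528) and of the membrane fraction (0.0601, 0.0608 and 0.0272). That difference was not tested.

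**Figure D4:**
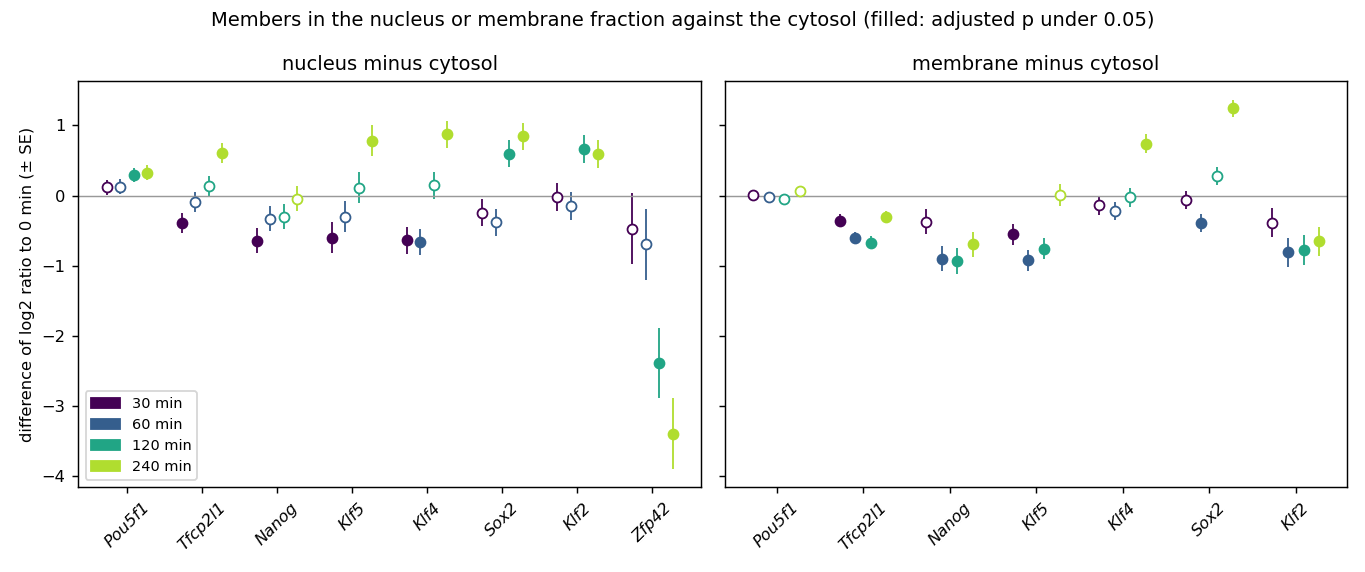
Difference of the log2 ratio to 0 min, nucleus minus cytosol (left, 8 members) and membrane minus cytosol (right, 7 members), at 4 times, with bars of ± SE. Filled points passed the test (limma, adjusted p under 0.05). With the deposited scaling most points on the left move up with time, except Zfp42, which reaches -3.39, and on the right Sox2 at 240 min stands highest at 1.24, a direction that turns with scaling to mitochondrially encoded mRNAs (-0.72).

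The fourth comparison set the membrane fraction, which holds mRNAs attached to the endoplasmic reticulum and other membranes, against the cytosol. No difference of slopes was called for 7 members (limma), where 4.94% of all genes had a higher and 1.76% a lower slope in the membrane fraction. Before adjustment 1 of the 7 members was under the 0.05 threshold. It was Sox2, with a difference of 0.43 ± 0.20 log2 units per h (limma, adjusted p = 0.223). With the harvest as a block Sox2 (adjusted p = 0.0016) and Klf4 (0.0061) were called, both with a shallower slope in the membrane fraction.

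The ratios themselves were mostly lower in the membrane fraction. At 60 min Nanog (-0.90 ± 0.18), Sox2 (-0.39 ± 0.13), Klf2 (-0.81 ± 0.21), Klf5 (-0.92 ± 0.15) and Tfcp2l1 (-0.61 ± 0.09, log2 membrane minus cytosol) were lower, 5 of 7 where 23.6% of all genes were lower and 8.36% higher. Klf5 (-0.55 ± 0.15) and Tfcp2l1 (-0.36 ± 0.09) were lower already at 30 min (2 of 7, all genes 2.61% lower and 3.83% higher), and both calls were lost with the harvest as a block (adjusted p = 0.106 and 0.0836). At 120 min Nanog (-0.93 ± 0.18), Klf2 (-0.78 ± 0.21), Klf5 (-0.76 ± 0.15) and Tfcp2l1 (-0.67 ± 0.09) were lower (4 of 7, all genes 24.4% lower and 13.2% higher). The Nanog ratio at 120 min was 0.332, 0.270 and 0.290 in the membrane fraction and 0.502, 0.555 and 0.650 in the cytosol, so that the groups did not overlap. With 1 replicate left out, the calls at 30 min and that of Sox2 at 60 min were lost whichever replicate it was (adjusted p from 0.105 to 0.252), and Nanog at 60 min, Klf2 at 60 and 120 min and Klf5 at 120 min were each lost for at least 1 replicate (0.0509 to 0.0823).

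At 240 min the members split. Nanog (-0.69 ± 0.18), Klf2 (-0.65 ± 0.21) and Tfcp2l1 (-0.31 ± 0.09) were lower in the membrane fraction (3 of 7, all genes 15.8%), and Sox2 (1.24 ± 0.13, adjusted p = 1.1e-06) and Klf4 (0.74 ± 0.13, adjusted p = 4.0e-04) were higher (2 of 7, all genes 17.5%). The membrane ratios of Sox2 at 240 min were 0.0370, 0.0415 and 0.0348, above all 3 of its cytosolic ratios given above. The Klf4 ratios were 0.0398, 0.0399 and 0.0383 in the membrane fraction and 0.0253, 0.0218 and 0.0238 in the cytosol. Scaling to mitochondrially encoded mRNAs turned the direction of Sox2 (-0.72) and Klf4 (-1.22) at 240 min and gave 26 lower and 0 higher calls over the 4 times in place of 14 and 2. The median gene was then at -1.95 at 240 min, against 0.01 in the main values. The higher calls of Sox2 and Klf4 at 240 min were kept when any replicate was left out, and those of Nanog, Klf2 and Tfcp2l1 were each lost with at least 1 replicate left out (adjusted p from 0.0508 to 0.281).

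Features of the transcripts that played no part in choosing the genes were read from the annotation. ATTTA occurred in the 3′ UTR of 8 of 10 members and of 67.1% of 9549 genes with a 3′ UTR. The longer TATTTAT, which contains ATTTA, occurred in 6 members and 27.8% of genes, and TGTANATA, the Pumilio motif, in 6 members and 24.4%. GCACTT, which pairs with the seed of the microRNA family most abundant in mESCs, occurred in 2 members and 31.0% of genes. Matches were counted on the sense strand only and overlapping matches were allowed. The presence of ATTTA did not follow the order of stability. Pou5f1, the most stable member, and Zfp42, with the shortest half-life of the members fitted in total RNA, both had 0 matches, in 3′ UTRs of 221 and 533 bases. Klf2 and Klf4 had 1 match each, Nanog had 3, Sox2 and Klf5 had 4, and Tfcp2l1 had 7 in a 3′ UTR of 7734 bases, which is longer than those of 99.1% of genes. Per 1000 bases Sox2 had 3.68 matches and Tfcp2l1 0.905, beside a median of 1.24.

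Other genes of the network were taken from a list of 18 further factors, of which 12 were tested in total RNA. Of these 10 fell and 1 rose (all genes 56.9% and 3.39%), and their median half-life was 69.0 min. The shortest half-lives were those of Gbx2, a homeobox gene downstream of LIF signalling (30.7 ± 4.3 min), Sall4, a zinc-finger partner of OCT4 (37.9 ± 0.95 min), and Foxd3, a forkhead factor (38.0 ± 4.5 min). At the other end, Tcf7l1, a repressor of naive genes, had 388 ± 115 min and Mybl2, a cell cycle regulator, had 442 ± 24 min. Nr0b1 (DAX1), an orphan nuclear receptor that binds OCT4, rose from 0.868 ± 0.094 (SD, n = 3) at 30 min to 1.14 ± 0.05 at 240 min (slope 0.12 ± 0.03, limma adjusted p = 0.0034), a call lost without replicate 3 (adjusted p = 0.0688), over 30, 60 and 120 min alone (0.644) and with libraries scaled to mitochondrially encoded mRNAs, where the slope was -0.0045.

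A second list held 15 pluripotency-associated genes that are mostly not transcription factors, of which 14 were tested in total RNA. Here 9 fell and 1 rose, where 56.9% of all genes fell and 3.39% rose. The median half-life of 506 min was longer than that of all genes, although 4 of the 14 lay below the latter. Fgf4, the growth factor induced by OCT4 and SOX2, had the shortest half-life of the list, 14.4 ± 2.2 min, and a ratio of 0.0098 ± 0.0001 at 240 min. Utf1, a chromatin-associated target of the same pair, had 83.4 ± 20 min and Lin28a, an RNA-binding protein, 136 ± 15 min. Alpl, which encodes the alkaline phosphatase used to stain stem cell colonies, rose from 0.857 ± 0.039 to 1.35 ± 0.06 (slope 0.20 ± 0.05, limma adjusted p = 0.0042), which with libraries scaled to mitochondrially encoded mRNAs was 0.08 (adjusted p = 0.323) and over 30, 60 and 120 min alone was -0.14 (adjusted p = 0.120). The slopes of Dppa3 (-0.01 ± 0.09) and Dppa5a (0.07 ± 0.04) did not pass the test.

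The genes whose ratios were most like those of a member, or of the mean of 7 members, were found over all 48 libraries, from 8540 named genes. For Pou5f1 these included Hint1 and Atp5f1, with root mean square differences of 0.12 log2 units each. For the mean profile of the 7 members listed in all 48 libraries they were D1Pas1 (0.23), Ticrr (0.24) and Hic2 (0.24). That mean joins unlike courses, such as those of Pou5f1 and Klf2 with a root mean square difference of 3.84 log2 units. It need not follow the course of any 1 member. For Zfp42, compared over its 47 libraries, the nearest were Cdkn1b (0.91), Fzd5 (0.92) and Brd8 (0.95). The replicates of Zfp42 spread more than those of Pou5f1, with an SD of 0.98 against 0.13 log2 units in total RNA at 120 min. The differences for Zfp42 and Pou5f1 therefore cannot show which course other genes followed more closely.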

How the data were processed

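RNA from 48 libraries (4 preparations, 4 times, 3 replicates) was analysed from deposited tables. The authors aligned reads with STAR 2.7.6 to mm10, quantified genes with RSEM 1.3.3, scaled each library to genes with half-lives over 14 h and deposited each gene as a ratio to 0 min of the same fraction. Whether the counting used strand is not given in the sources used here. Genes at 0 are not listed. The deposited ratio holds no read counts, so the depth is unknown and no counting interval is given, and the number of genes listed per library is the only measure of it used. Scaling on stable genes makes each level depend on those genes, and a low starting level makes a ratio noisy.

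Log2 ratios were fitted with limma 3.58.1 (R 4.3.3, moderated two-sided tests with a trend, Benjamini-Hochberg over all genes of a comparison, threshold 0.05), on genes present in each of the 12 libraries of a fraction, or of the 24 of a pair, with no pseudocount. The scripts were tested on simulated data. Half-lives came from a least-squares exponential on the linear ratios (Python 3.11.15, numpy 2.4.6), with the SD over 3 single-replicate series. The level of the curve at 0 min was fitted and not fixed at 1. The last time is 240 min as in the sample titles, although the protocol text gives 180. Coordinates and 3′ UTRs are those of GENCODE vM21 on GRCm38, which is mm10, and 9549 of the 9746 coding genes tested had a 3′ UTR. From each list the 3 shortest and 3 longest half-lives in total RNA were named, and the 3 genes nearest to a member in root mean square difference, of which 1 is not reported here. The members and lists were chosen with earlier results of these data known.

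Replicates were independently passaged cultures. Equal numbers at different times of a fraction did not deviate together (correlation of deviations from -0.06 to 0.19). Nucleus, cytosol and membrane fraction of 1 replicate and time came from the same harvest, which is a pairing from the protocol, although their deviations correlated by only -0.09 to 0.15, so a fit with the harvest as a block is given where it changed a call. Alternatives were other scalings, a pseudocount of 0.1, limma without trend, a looser filter, other times and leaving out replicates.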

Additional observations from a re-analysis of the deposited data

Results flagged for a closer look

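The results listed here are those in which the change of a member differed between 2 fractions by the test of the difference itself (limma, adjusted p under 0.05). All ratios are relative to each fraction's own 0 min.

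For the slope, nucleus minus cytosol, these were Klf5 (0.38 log2 units per h) and Tfcp2l1 (0.27).

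For the log2 ratio, nucleus minus cytosol, they were Nanog (-0.65), Klf4 (-0.64), Klf5 (-0.60) and Tfcp2l1 (-0.39) at 30 min, and Klf4 (-0.66) at 60 min. At 120 min they were Pou5f1 (0.29), Sox2 (0.60), Klf2 (0.66) and Zfp42 (-2.39). At 240 min they were Pou5f1 (0.33), Sox2 (0.84), Klf2 (0.58), Klf4 (0.87), Klf5 (0.78), Tfcp2l1 (0.60) and Zfp42 (-3.39). The median nuclear ratio of replicate 1 at 30 min, 0.592, was low over all genes, and its part in the 30 min results is given by the fits without that library in the report.

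For the log2 ratio, membrane minus cytosol, they were Klf5 (-0.55) and Tfcp2l1 (-0.36) at 30 min, and Nanog (-0.90), Sox2 (-0.39), Klf2 (-0.81), Klf5 (-0.92) and Tfcp2l1 (-0.61) at 60 min. At 120 min they were Nanog (-0.93), Klf2 (-0.78), Klf5 (-0.76) and Tfcp2l1 (-0.67). At 240 min they were Nanog (-0.69), Sox2 (1.24), Klf2 (-0.65), Klf4 (0.74) and Tfcp2l1 (-0.31).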

How the results depend on the processing

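Ratios to a separately scaled 0 min limit every comparison between fractions, 3 replicates limit every call near the threshold, and the depth behind low ratios is unknown. The counts of members that fell over the course stayed within 1.5 times under all alternatives. The cause of the following changes was not tested. Falls between neighbouring times numbered 14 in total RNA (5 to 9 with 1 replicate left out), 11 in the nucleus (3 to 13 with 1 replicate left out, 5 with scaling to mitochondrially encoded mRNAs, 7 with a replicate block, 15 without the nuclear 30 min library of replicate 1) and 16 in the membrane fraction (7 to 8 with 1 replicate left out). Slope differences, nucleus minus cytosol, numbered 2, against 0 with mitochondrial scaling or over 30, 60 and 120 min only, 1 with the pseudocount, a replicate block or without the nuclear 30 min library of replicate 1, 0 to 1 with 1 replicate left out, and 5 with the harvest block or 180 min as last time. Membrane minus cytosol gave 0, against 3 with mitochondrial scaling, 2 with the harvest block and 1 with 180 min. Level differences numbered 16 in both pairs, with 7 to 10 when 1 replicate was left out, 26 for the membrane fraction with mitochondrial scaling, and 12 for the nucleus when that 30 min library was dropped. Apart from these, the replicate block changed no count by over 1.5 times. Median half-lives in min were, in total RNA, 40.7 with centring, 58.8 from a straight line and 43.1 with the level at 0 min fixed at 1. In the nucleus they were 39.2 with centring, 78.2 from a straight line and 40.3 with the fixed level. The nuclear median was the least reproducible, with an SD of 34.2 over the single-replicate series. In the cytosol they were 116 with centring, 18.9 with mitochondrial scaling, 74.9 from a straight line and 61.6 with the fixed level, and in the membrane fraction 40.4, 21.3, 63.5 and 43.6 in the same order. Pou5f1 in total RNA and Pou5f1 and Tfcp2l1 in the nucleus had no finite half-life, so no alternative is given for them, and alternatives that gave no finite value are left out. With 1 replicate left out the medians ran from 29.0 to 32.2, 24.4 to 32.9, 30.8 to 32.2 and 26.6 to 29.0. Directions turned as follows. With centring the slope was 0.082 for Tfcp2l1 in total RNA, 0.24 for Pou5f1 and 0.026 for Tfcp2l1 in the cytosol, 0.24 for Pou5f1 and 0.046 for Tfcp2l1 in the membrane fraction, where the last step of Tfcp2l1 was 0.047. With mitochondrial scaling the slope of Pou5f1 was -0.12 in total RNA and 0.12 in the cytosol, and the last nuclear step of Nanog was 0.034. The same scaling gave nuclear level differences of -1.26 (Pou5f1), -0.95 (Sox2) and -0.89 (Klf2) at 120 min and -0.21 (Pou5f1) at 240 min, membrane level differences of -0.72 (Sox2) and -1.22 (Klf4) at 240 min, and membrane slope differences of -0.36 (Pou5f1), -0.11 (Klf4), -0.18 (Klf5) and -0.35 (Tfcp2l1). With 1 replicate left out the slope of Pou5f1 ran from -0.0069 to 0.010 in total RNA and from -0.011 to 0.045 in the nucleus, and that of nuclear Tfcp2l1 from -0.047 to 0.044, which was -0.035 without the nuclear 30 min library of replicate 1. Membrane slope differences ran from -0.0705 to 0.020 for Klf2 and from -0.019 to 0.089 for Tfcp2l1 with 1 replicate left out. They turned to 0.013 (Nanog) and 0.11 (Klf2) with the pseudocount, and to -0.034 (Pou5f1), -0.092 (Klf5) and -0.19 (Tfcp2l1) over 30, 60 and 120 min only.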

Other observations

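Of 11 genes of the formative and primed states, 5 were tested in total RNA and 5 fell (all genes 56.9%), with a median half-life of 52.4 min beside 244 min over all genes. Zic2, a zinc-finger gene, had the shortest at 29.2 ± 5.4 min (SD over 3 series) and went from a ratio of 0.609 ± 0.021 (SD, n = 3) at 30 min to 0.0367 ± 0.00465 at 240 min. Sall2, a relative of the OCT4 partner SALL4, had 51.3 ± 5.0 min. Pou3f1 (OCT6), a POU-domain relative of OCT4, had 73.7 ± 18 min and Sox3, a relative of SOX2, had 110 ± 38 min. The half-life of T (brachyury), at 52.4 min, varied between series by an SD of 335 min.

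Of 39 paralogs of the members 24 were tested in total RNA, of which 20 fell and 2 rose (all genes 56.9% and 3.39%), with a median half-life of 73.3 min. Krüppel-like factors stood at both ends. Klf3, Klf6 and Klf10 had half-lives of 15.7 ± 2.3, 16.8 ± 3.8 and 19.6 ± 1.2 min, shorter than those of the member Klf5. Klf12 rose from 0.782 ± 0.239 at 30 min to 1.56 ± 0.03 at 240 min (slope 0.32 ± 0.07 log2 units per h, limma adjusted p = 0.0014) and was called with each library centred or scaled to mitochondrially encoded mRNAs and with any replicate left out, but not over 30, 60 and 120 min alone (adjusted p = 0.0881). Klf7 rose from 0.819 ± 0.189 to 1.47 ± 0.22 (slope 0.32 ± 0.09, adjusted p = 0.0082), a call lost without replicate 3 (adjusted p = 0.0892) and with mitochondrial scaling (0.0531), and over 30, 60 and 120 min alone its slope was -0.16 (0.510). Tbx2, a T-box factor, had no finite half-life either, and its slope of 0.06 ± 0.15 did not pass the test (adjusted p = 0.762).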
